A study of Mus musculus with 4 samples.

Results

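The insulin-like growth factor (IGF) family was read in bulk RNA-seq counts of skeletal stem cells sorted from mouse long bones, as 10 genes chosen by symbol: the ligands Igf1 and Igf2, the receptor Igf1r, the binding proteins Igfbp2 to Igfbp7, and Stc2, which encodes stanniocalcin-2. All 10 were among the 55487 genes of the count table, and all 10 passed the filter on low counts that left 17120 genes to test. The groups were 2 libraries from wild-type mice after sham surgery and 2 libraries from wild-type mice after ovariectomy, an operation that takes away most circulating oestrogen and serves as a model of postmenopausal bone loss. All 4 libraries carry the time 8 weeks, without a statement of whether this is age or time since surgery. The cells came from collagenase-digested metaphyses and were sorted fresh after staining for the antigens CD51, CD200, CD105, 6C3, CD90, Tie2, CD45 and Ter119. The labels do not say which antigens were selected for, nor whether the libraries of a group came from separate mice or pools, so p-values measure the spread between these libraries, which may be technical.

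IGF-1 and IGF-2 are small secreted hormones that act through the receptor tyrosine kinase IGF1R, which signals through insulin receptor substrates to PI3K and AKT. In bone and cartilage they are known to support growth of the growth plate and the work of osteoblasts. Most of the ligand outside cells is held by the IGF binding proteins, which can block its access to the receptor, prolong its life or carry it to the matrix, and proteases such as PAPP-A free it again. Stanniocalcins inhibit PAPP-A.

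Transcripts of 3 binding proteins, Igfbp4, Igfbp5 and Igfbp6, were higher after ovariectomy, by 5.73-fold, 4.77-fold and 2.78-fold. Stc2 was lower, by 1.72-fold. For the ligands, the receptor and the other binding proteins no difference passed the test. The count of 4 members called at an adjusted p under 0.05 (edgeR quasi-likelihood test, Benjamini-Hochberg adjustment over all genes tested) stood against 4.18% of all genes tested that were called in either direction, 2.98% higher and 1.2% lower. The median log2 fold change of the 10 members was 0.96, and that of all genes tested was -0.02. The member median lies midway between Igf1 (0.85) and Igfbp3 (1.06), neither of which passed. The members were chosen with earlier results of these data known, so the count and the median are descriptions only. By mean level per kb of exon, the 4 called members lay above 89% to 98.6% of genes tested. Both ovariectomy libraries lay above both sham libraries for 6 members and below them for 1, and the groups overlapped for 3 (Igf2, Igfbp3 and Igfbp7). Over all genes tested, 49.3% had groups that did not overlap, 25.5% with ovariectomy higher and 23.9% with ovariectomy lower. With either ovariectomy library left out, edgeR called 0 members and 0 of all genes (1788 and 1618 genes at an unadjusted p under 0.05, leaving out ovariectomy 1 and 2). With sham 2 left out it called 6 members higher and Stc2 lower.

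The start regions of the 4 genes that passed the test are shown so that the sequence in front of them can be compared. They are RefSeq windows on GRCm38.p6, from 250 bases before the annotated start to 50 bases after it, written 5′ to 3′ on the strand of the gene: chr11:99040994-99041293 (plus strand) for Igfbp4, chr1:72874816-72875115 (minus strand) for Igfbp5, chr15:102143936-102144235 (plus strand) for Igfbp6 and chr11:31370012-31370311 (minus strand) for Stc2. Capitals mark matches, on either strand, to the TATA box letters TATAAA, to the related run TTTAAA and to GGTCA. The last is the core of the element bound by oestrogen receptors. Also marked are the full palindromic element GGTCANNNTGACC and TGANTCA, a loose form of the AP-1 motif that allows any middle base.
Igfbp4: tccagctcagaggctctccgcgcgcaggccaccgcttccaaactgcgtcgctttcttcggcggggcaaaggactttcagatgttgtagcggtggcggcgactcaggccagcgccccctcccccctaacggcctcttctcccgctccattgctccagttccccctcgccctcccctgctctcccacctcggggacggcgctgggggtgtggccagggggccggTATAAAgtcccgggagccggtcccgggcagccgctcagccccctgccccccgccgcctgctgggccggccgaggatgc
Igfbp5: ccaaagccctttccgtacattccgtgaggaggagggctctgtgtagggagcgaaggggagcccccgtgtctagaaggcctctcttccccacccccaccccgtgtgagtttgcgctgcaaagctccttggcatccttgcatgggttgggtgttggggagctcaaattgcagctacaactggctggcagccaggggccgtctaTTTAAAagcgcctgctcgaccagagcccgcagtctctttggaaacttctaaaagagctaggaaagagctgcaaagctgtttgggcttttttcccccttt
Igfbp6: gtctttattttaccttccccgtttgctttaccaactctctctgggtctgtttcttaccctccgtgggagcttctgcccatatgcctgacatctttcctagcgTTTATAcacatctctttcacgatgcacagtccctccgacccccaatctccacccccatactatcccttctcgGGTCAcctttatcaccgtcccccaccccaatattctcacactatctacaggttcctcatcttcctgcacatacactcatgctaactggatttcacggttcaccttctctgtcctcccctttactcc
Stc2: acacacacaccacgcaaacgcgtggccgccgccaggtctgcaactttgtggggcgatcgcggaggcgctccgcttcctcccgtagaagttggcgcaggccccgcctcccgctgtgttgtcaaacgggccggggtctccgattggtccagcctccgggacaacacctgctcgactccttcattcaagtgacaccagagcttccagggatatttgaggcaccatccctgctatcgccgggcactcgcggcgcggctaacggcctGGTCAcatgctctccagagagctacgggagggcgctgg
The window of Igfbp4 held TATAAA from -28 to -23 relative to the start base, and that of Igfbp5 held TTTAAA from -49 to -44. The window of Igfbp6 held TATAAA on the opposite strand, from -148 to -143, and its RefSeq start lies upstream of the gene start in the GENCODE annotation. The core GGTCA was in the windows of Igfbp6 (-76 to -72) and Stc2 (12 to 16). Of all 32851 windows of this length, 13.6% held the TATA box letters, 13.2% the related run and 40.5% the core GGTCA. The full palindromic oestrogen response element GGTCANNNTGACC was in 0 of the 14 windows of the 10 members and in 0.0700% of all windows. The loose AP-1 form TGANTCA was in windows of Igf1 (as TGAATCA) and Igfbp2 (as TGAGTCA) and in 7.81% of all windows. GGTCA is a part of the full element, and a match describes the sequence only. The windows of the 4 genes differed in base composition, with a GC content of 71.3% for Igfbp4, 64.7% for Stc2, 56.3% for Igfbp5 and 49.7% for Igfbp6, where the median of all windows was 52.7%.

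The libraries held between 18291436 and 23721078 counts, and 1 count was worth between 0.0423 and 0.0519 CPM (counts relative to the TMM-scaled library total). Of the stained antigens, Itgav (CD51) was at 67.3 to 72.0 CPM in all 4 libraries, and Cd200 was lower after ovariectomy (log2 fold change -0.73, edgeR adjusted p = 0.0462). Eng (CD105), Enpep (6C3) and Tek (Tie2) had both ovariectomy libraries above both sham libraries and did not pass (edgeR adjusted p = 0.150, 0.220 and 0.474). Eng was at 21.6 and 52.1 CPM in the sham libraries, against 75.2 and 83.1 CPM after ovariectomy, Enpep at 1.52 and 1.91 against 4.40 and 3.64 CPM, and Tek at 0.223 and 5.52 against 7.53 and 9.77 CPM. Ptprc (CD45) was at 3.55 to 9.55 CPM, and Thy1 (CD90), with 3 to 5 counts in a library, was too low to test. What these antigen values have to do with the IGF family values was not tested. Cartilage and bone genes were abundant in both groups. Calls among their markers stand beside 2.98% of all genes tested called higher and 1.2% called lower. The 10 chondrocyte markers summed to 107000 and 99100 CPM in the sham libraries and 62430 and 56730 CPM after ovariectomy, with 8 called lower (Sox9 and Ihh did not pass), and the 8 osteoblast markers to 84120 and 113300 CPM against 75020 and 68860 CPM, with 4 called lower and Dmp1 higher (Runx2, Bglap and Col1a1 did not pass).

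Igf1, the ligand that bone cells and liver both make, was at 10.6 and 15 CPM in the sham libraries and 20.3 and 26.0 CPM after ovariectomy. Both ovariectomy libraries lay above both sham libraries. The log2 fold change of 0.85 ± 0.25 (SE, 95% interval 0.26 to 1.44) did not pass after adjustment (edgeR adjusted p = 0.123). It passed with no filter on low counts (edgeR adjusted p = 0.0131) and without sham 2 (log2 fold change 1.14, edgeR adjusted p = 0.0164). Igf1 is also made by macrophages. Of the 8 tested macrophage and monocyte markers, edgeR called 0 and the DESeq2 test 2. At an unadjusted edgeR p under 0.05 there were 4, beside 3154 of all 17120 genes tested. The summed level of all 9 was 75.1 and 82.2 CPM in the sham libraries and 106.5 and 145.8 CPM after ovariectomy. Lyz2 (31.4 and 24.3 against 42.4 and 78.6 CPM) and Cd14 (25.1 and 31.5 against 45.5 and 42.5 CPM) made up most of it. Of the 8 tested, 5 had both ovariectomy libraries above both sham libraries, beside 25.5% of all genes tested. Ptprc, Csf1r and Cd68 overlapped between the groups, with log2 fold changes below 0. The part of such cells in the Igf1 values was not tested.

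Igf2, the ligand of prenatal growth, which is imprinted and expressed from the paternal copy, was counted 4 and 11 times in the sham libraries, against 6 and 10 times after ovariectomy. The groups overlapped, and the ratio of 1.12 had a 95% counting interval from 0.517 to 2.42 (exact binomial, counting error only). In GENCODE M21, 64.5% of the exon length of Igf2 is shared with other genes, chiefly with Gm49394, which lies entirely within shared exons and had 0 counts in all 4 libraries. Whether reads in shared exons were counted is not given in the sources used here, so the level of Igf2 is uncertain and is not compared with that of Igf1. H19, the non-coding RNA of the same imprinted domain on chromosome 7, was at 10.8 and 9.17 CPM in the sham libraries and 5.41 and 5.14 CPM after ovariectomy (log2 fold change -0.92 with an SE of 0.28, edgeR adjusted p = 0.136).

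Igf1r, the receptor through which both ligands signal, was at 24.5 and 27.8 CPM in the sham libraries and 30.7 and 28.0 CPM after ovariectomy. The groups did not overlap, although sham 2 and ovariectomy 2 lay close together. This came to a log2 fold change of 0.17 ± 0.17 (SE, 95% interval -0.24 to 0.58, edgeR adjusted p = 0.706). Insr, the insulin receptor, which can pair with IGF1R, changed by 0.20 ± 0.28 (SE) on the log2 scale, and Igf2r, the receptor that clears IGF-2 to the lysosome, by -0.07 ± 0.15 (SE). Neither passed (edgeR adjusted p = 0.807 and 0.885).

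Igfbp4 encodes a binding protein that mainly inhibits IGF action and is the best known substrate of PAPP-A. The gene (ENSMUSG00000017493) lies on chromosome 11 from 99041244 to 99054392 on the plus strand (GRCm38). It was at 46.7 and 61.0 CPM in the sham libraries and 310.1 and 307 CPM after ovariectomy. Even the lower ovariectomy library was far above both sham libraries, and the ovariectomy pair lay close together. The increase amounted to a log2 fold change of 2.52 ± 0.16 (SE, 95% interval 2.15 to 2.89, edgeR adjusted p = 0.000771). By p it stood at position 14 among the 17120 genes tested, and by the size of the change at position 613.

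Igfbp5 encodes the binding protein known to be stored in bone matrix. It lies on chromosome 1 from 72857932 to 72874884 on the minus strand. It had 110.3 and 165 CPM in the sham libraries (mean ± SD 138 ± 39.0, n = 2) and 564 and 751 CPM in the ovariectomy libraries (658 ± 133, n = 2). The libraries of each group differed more than for Igfbp4, and the groups were still well apart. The log2 fold change was 2.25 ± 0.22 (SE, 95% interval 1.73 to 2.78, edgeR adjusted p = 0.00439).

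Igfbp6, whose product prefers IGF-2 over IGF-1, lies on chromosome 15 from 102144362 to 102149511 on the plus strand. It was at 62.8 and 96.5 CPM in the sham libraries and 206 and 236 CPM after ovariectomy, with no overlap. This was a log2 fold change of 1.47 ± 0.21 (SE, 95% interval 0.98 to 1.96, edgeR adjusted p = 0.0110). In the plot of levels by library, the ovariectomy points of Igfbp4, Igfbp5 and Igfbp6 lie clear of the sham points by more than the distance within either group.

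**Figure D1:**
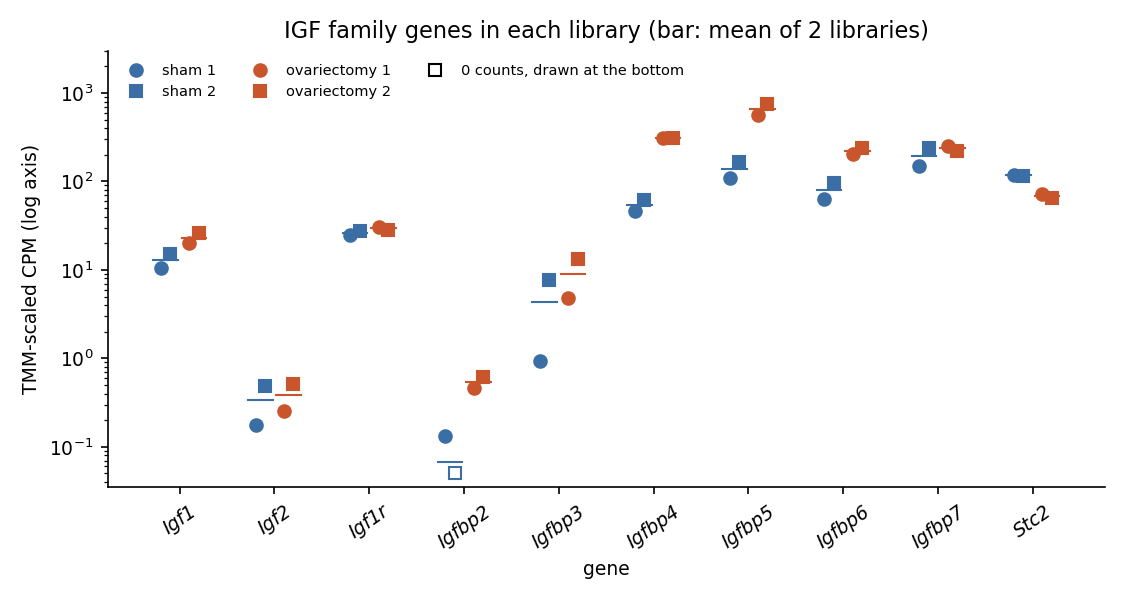
TMM-scaled CPM (log axis) of the 10 IGF family genes in the 2 sham and 2 ovariectomy libraries, with a bar at the mean of each group and an open symbol for 0 counts. Igfbp4, Igfbp5 and Igfbp6 lie higher in both ovariectomy libraries, and Stc2 lies lower (64.4 to 72.4 CPM against 116 to 119 CPM).

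Igfbp7, a secreted protein that binds IGFs weakly and is abundant around vessels, was at 149.9 and 236 CPM in the sham libraries and 255 and 218 CPM after ovariectomy. The groups overlapped. The log2 fold change of 0.29 ± 0.21 (SE, 95% interval -0.20 to 0.79, edgeR adjusted p = 0.545) was 0.01 without sham 1 and 0.67 without sham 2, where it passed (edgeR adjusted p = 0.0181). Of its exon length, 7.03% is shared with Polr2b.

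Igfbp3 encodes the main carrier of IGFs in blood and is also made by endothelial cells. It was at 0.937 and 7.66 CPM in the sham libraries and 4.82 and 13.1 CPM after ovariectomy. Sham 1 was low and the other sham library lay between the ovariectomy libraries. The log2 fold change of 1.06 ± 0.85 (SE, 95% interval -0.94 to 3.06, edgeR adjusted p = 0.603) was 0.22 without sham 1 and 3.26 without sham 2 (edgeR adjusted p = 0.00286). The 8 endothelial markers, of which edgeR and the DESeq2 test called 0 (0 at an unadjusted edgeR p under 0.05, and 6 called by edgeR without sham 2), summed to 10.3 and 48.8 CPM in the sham libraries and to 45.2 and 65.9 CPM after ovariectomy, with Cdh5 and Emcn at 0 in sham 1. Both Igfbp3 and this sum were thus lowest in sham 1 and highest in ovariectomy 2, and the part of endothelial RNA in the Igfbp3 values was not tested.

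Igfbp2, whose product carries an integrin-binding motif, was close to the limit of detection, counted 3 and 0 times in the sham libraries, against 11 and 12 times after ovariectomy. The ratio of 8.02 had a 95% counting interval from 2.42 to 41.7 (exact binomial, counting error only), and the difference did not pass the test (edgeR adjusted p = 0.391). Igfbp1, a binding protein of liver outside the 10 genes, had counts in 1 library only and was too low to test.

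Stc2, whose product inhibits PAPP-A, moved the other way. The gene (ENSMUSG00000020303) lies on chromosome 11 from 31357307 to 31370074 on the minus strand. It was at 119 and 116 CPM in the sham libraries and 72.4 and 64.4 CPM after ovariectomy, with the libraries of each group close together. The decrease gave a log2 fold change of -0.78 ± 0.13 (SE, 95% interval -1.09 to -0.48, edgeR adjusted p = 0.0202). All 10 chondrocyte markers had log2 fold changes below 0, with a median of -0.86. The part of a change in cell mix in the Stc2 values was not tested.

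Leaving out a library moved the poorly measured members most. The log2 fold changes of Igfbp4 ran from 2.34 to 2.74, of Igfbp5 from 1.99 to 2.59, of Igfbp6 from 1.20 to 1.83 and of Stc2 from -0.85 to -0.68. None of these 4 was called when an ovariectomy library was left out (edgeR adjusted p between 0.116 and 0.377), a fit in which only the sham pair gives the spread. That of Igf2 changed sign, at -0.34 without sham 1 and -0.38 without ovariectomy 2.

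**Figure D2:**
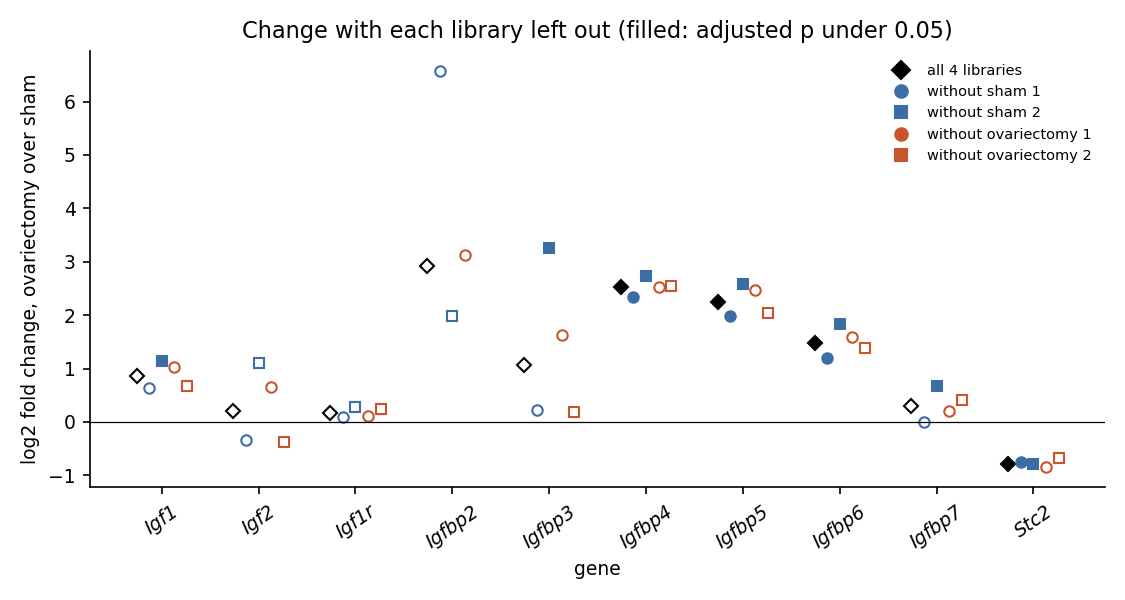
Log2 fold change, ovariectomy over sham, of the 10 IGF family genes (horizontal axis) with all 4 libraries and with each library left out, filled where the adjusted p was under 0.05. Igfbp2 has no value without ovariectomy 2, where it did not pass the filter on low counts. Igfbp4, Igfbp5, Igfbp6 and Stc2 keep their sign throughout and are filled except where an ovariectomy library is left out, while Igfbp3 runs from 0.18 to 3.26.

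Levels of different genes were compared as CPM per kb of exon, with the merged exons of all annotated transcripts as length, which understates a gene whose cells use short transcripts. In sham cells Igfbp7 was highest at 159.6 ± 50.3 CPM per kb (mean ± SD, n = 2). Igfbp6 followed at 71.6 ± 21.4, Igfbp5 at 23.0 ± 6.49, Stc2 at 22.7 ± 0.516 and Igfbp4 at 12.2 ± 2.29 CPM per kb. Igfbp5 and Stc2 were not separated by their libraries, while the others in this upper range were. Igf1r (1.56 ± 0.139), Igfbp3 (1.37 ± 1.52) and Igf1 (1.29 ± 0.313 CPM per kb) formed a lower tier, in which neighbours overlapped. In ovariectomy cells the upper range was Igfbp6 at 199 ± 19.5, Igfbp7 at 196 ± 21.3, Igfbp5 at 109 ± 22.1, Igfbp4 at 69.9 ± 0.495 and Stc2 at 13.2 ± 1.10 CPM per kb. Here Igfbp6 and Igfbp7 overlapped, and Stc2 stood below Igfbp4.

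The 6 binding proteins together came to 209.8 and 326 CPM per kb in the sham libraries and to 561.5 and 592.3 CPM per kb in the ovariectomy libraries. Their make-up also differed between the groups. Igfbp7 took 59.5 ± 0.566% of the summed level in sham and 34.0 ± 4.97% in ovariectomy cells (mean ± SD, n = 2). Igfbp4 took 4.64 ± 0.566% and 12.1 ± 0.544%, Igfbp5 8.61 ± 0.211% and 18.9 ± 3.11%, and Igfbp6 26.8 ± 0.191% and 34.4 ± 2.09%. Igfbp2 and Igfbp3 took under 1% in every library. Without division by length, Igfbp7 took 41.0% and 16.65%, Igfbp5 29.5% and 45.65%, Igfbp4 11.7% and 21.6%, and Igfbp6 17.0% and 15.4%, so that the share of Igfbp6 did not move up on that scale. No test was run on these shares, since 2 libraries against 2 cannot reach the 0.05 threshold in an exact permutation test.

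**Figure D3:**
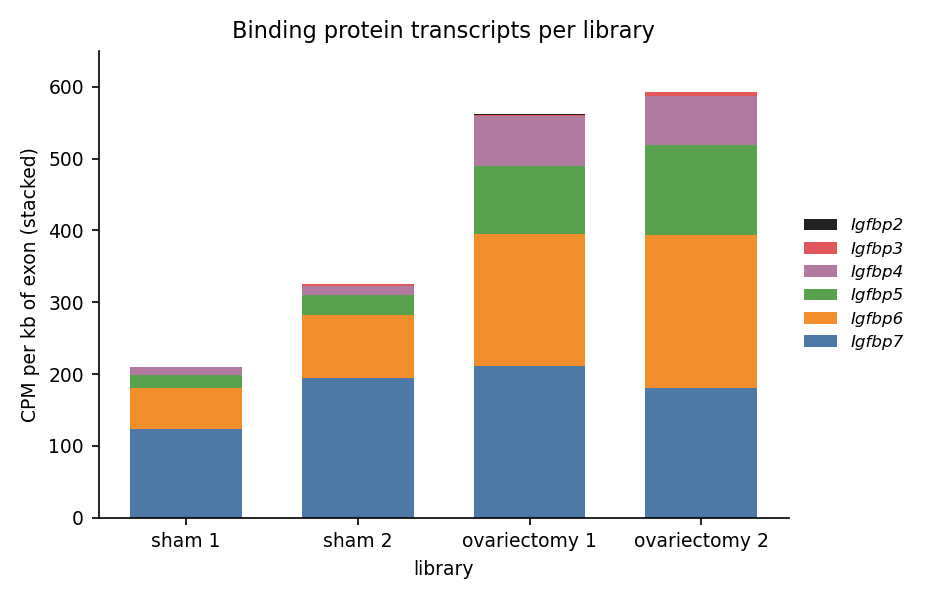
Stacked level of the 6 binding protein transcripts in CPM per kb of exon (vertical axis) for each of the 4 libraries. The stack reaches 209.8 and 326 CPM per kb in the sham pair, against 561.5 and 592.3 in the ovariectomy pair, and the part of Igfbp7 is of similar height in sham 2 and both ovariectomy libraries.

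Relative to Igf1, the binding protein sum was 196 and 215 times as high in sham and 273.5 and 225.9 times as high in ovariectomy libraries, on the CPM per kb scale. Relative to Igf1r it was 144 and 197 times as high in sham and 307 and 355 times as high in ovariectomy libraries. On this scale the groups differed in the first ratio by less than the distance within the ovariectomy pair. They differed in the second by more than the distance within either pair. The first result depended on the division by exon length. Undivided, the binding proteins summed to 370.8 and 566.6 CPM (sham 1 and 2) and 1339 and 1527 CPM (ovariectomy 1 and 2). Igf1 had 10.6, 15, 20.3 and 26.0 CPM in that order. The undivided ratio to Igf1 was higher in both ovariectomy libraries than in either sham library, by more than the distance within either pair.

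Markers of other cell types moved in the same libraries as Igfbp4, Igfbp5 and Igfbp6, which stromal, fibroblast and vessel wall cells are known to express. Of 8 fibroblast markers, 5 were called higher (Pi16, Dpt, Ly6a, Pdgfra and Cd34), beside 2.98% of all genes tested. Lum had both ovariectomy libraries below both sham libraries (log2 fold change -0.35, edgeR adjusted p = 0.150). Dcn and Col15a1 overlapped between the groups. The sum of all 8 was set by abundant Dcn and Lum. It was 5287 and 7758 CPM in the sham libraries and 7010 and 7572 CPM after ovariectomy. Of 7 markers of LepR-positive stroma, Cxcl12 and Vcam1 were called higher. The sum was 143 and 208.5 CPM in the sham libraries and 333 and 452 CPM after ovariectomy. Cxcl12 made up most of it, at 83.3 and 139 against 232 and 334 CPM, while Lepr, Ebf3 and Foxc1 overlapped between the groups. Of 9 pericyte and smooth muscle markers, Rgs5, Des and Acta2 were called higher, and the sum was 63.3 and 111 CPM in the sham libraries and 404 and 473 CPM after ovariectomy. Rgs5 made up most of the ovariectomy sums, at 5.67 and 46.4 against 295 and 361 CPM, while Pdgfrb, Abcc9, Mcam and Notch3 overlapped between the groups. Granulocyte markers summed to 137 and 86.7 CPM in the sham libraries and 178 and 284 CPM after ovariectomy (2 of 7 called higher, Mpo and Elane). Mpo was at 3.39 and 0.490 against 58.4 and 110 CPM, while S100a9, Ngp, Ltf and Camp overlapped between the groups. Erythroid markers summed to 38.0 and 21.9 against 118 and 155 CPM (3 of 6 tested called higher). Lymphocyte markers summed to 2.41 and 2.45 against 8.46 and 21.45 CPM (1 of 4 tested called higher). Of all these markers, Cd3e was the only one with 0 counts in both sham libraries. In bulk RNA, a change in the number of cells of a type and a change in the RNA per cell cannot be told apart, and the part of these cells in the binding protein values was not tested.

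The genes whose profile over the 4 libraries was nearest to each called member were found among 10086 tested genes at a mean level of 5 CPM or more, by the Euclidean distance of centred log2(CPM + 0.5) values. For Igfbp4 these were Sparcl1 (distance 0.18 log2 units), Fam124a (0.18) and Chst2 (0.26). For Igfbp5 they were Col4a2 (0.10), Fam129a (0.12) and Ntn1 (0.14). For Igfbp6 they were Inhba (0.09), Prrx1 (0.10) and Fhl1 (0.10), and for Stc2 Pxylp1 (0.03), Rflna (0.04) and Cdc25a (0.05). Over 4 libraries such nearness is a description only.

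A wider set of 55 other genes of the pathway was read by role. Of these, 49 were tested, 1 was called higher and 3 lower (8.16%, beside 4.18% of all genes), and the median log2 fold change was 0.09. Among 8 tested proteases of binding proteins and their inhibitor, Htra1, a secreted serine protease that cleaves several binding proteins, was the gene that passed. It was at 598 and 804 CPM in the sham libraries and 1175 and 1167 CPM after ovariectomy (log2 fold change 0.74 with an SE of 0.15, edgeR adjusted p = 0.0398). Pappa, the PAPP-A protease itself, was at 5.26 and 5.39 CPM in the sham libraries and 3.26 and 4.36 CPM after ovariectomy and did not pass (log2 fold change -0.48 with an SE of 0.37, edgeR adjusted p = 0.570). Stc1, the paralogue of Stc2, was at or below 2.40 CPM in all libraries. The metalloproteases Adamts1 (log2 fold change 0.66 ± 0.15 SE) and Adam9 (0.96 ± 0.24 SE), named after their values were seen, missed the threshold (edgeR adjusted p = 0.0551 and 0.0824) and passed with library totals alone (edgeR adjusted p = 0.0311 and 0.0457) and with the DESeq2 test (adjusted p = 0.000145 and 0.00132).

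**Figure D4:**
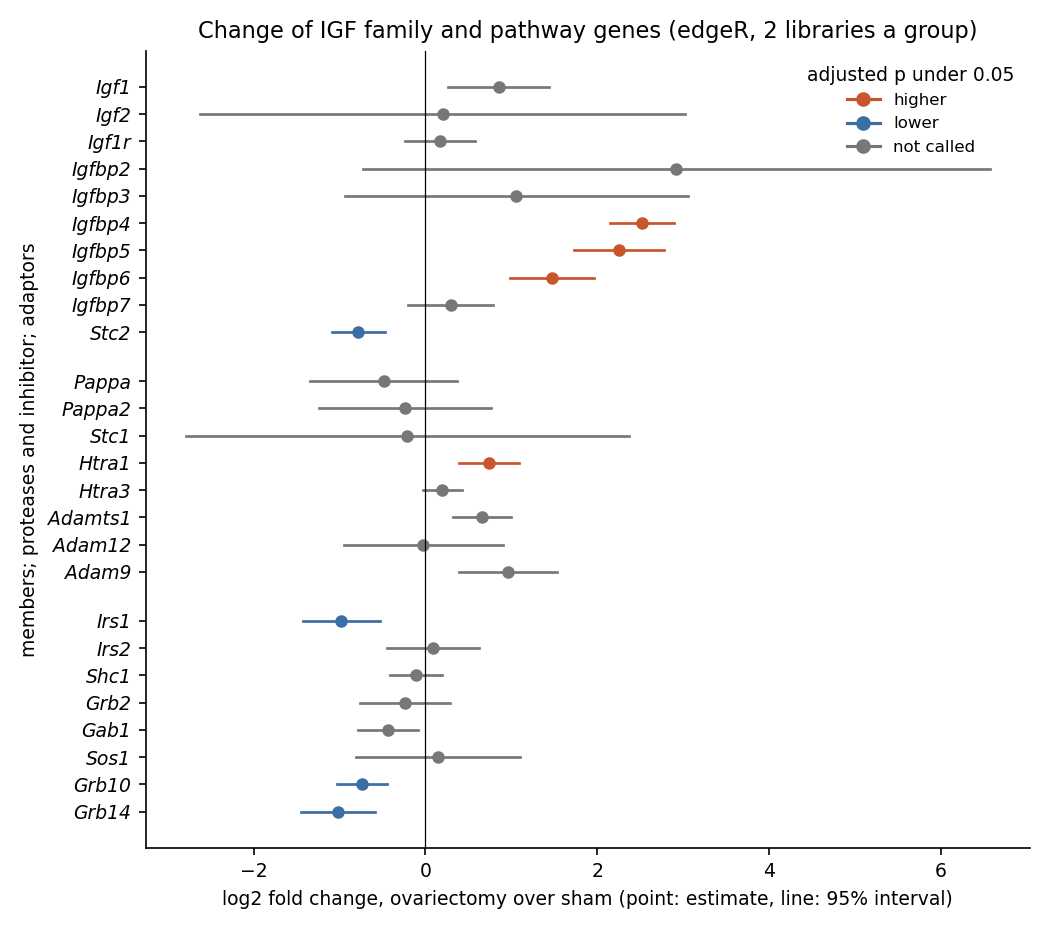
Log2 fold change, ovariectomy over sham, with its 95% interval for the 10 IGF family genes, the 8 tested proteases and inhibitor and the 8 tested receptor adaptors. Coloured points passed at an adjusted p under 0.05: Igfbp4, Igfbp5, Igfbp6 and Htra1 to the right of 0, Stc2, Irs1, Grb10 and Grb14 to its left.

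Of 8 tested receptor adaptors, 3 were lower and 0 higher, beside 1.2% and 2.98% of all genes tested. Irs1, the substrate that links IGF1R to PI3K, was at 28.5 and 33.8 CPM in the sham libraries and 16.2 and 15.4 CPM after ovariectomy (log2 fold change -0.98 with an SE of 0.19, edgeR adjusted p = 0.0354). In GENCODE M21, 30.9% of its exon length is shared with Gm9747, and whether reads in shared exons were counted is not given. Grb10, an imprinted adaptor that inhibits IGF1R and insulin receptor signalling, fell from 545.5 and 455.5 CPM to 300.2 and 299.5 CPM (log2 fold change -0.74 with an SE of 0.12, edgeR adjusted p = 0.0211). Its relative Grb14, an inhibitor of the insulin receptor, fell from 97.2 and 115 CPM to 60.55 and 44.0 CPM (log2 fold change -1.02 with an SE of 0.18, edgeR adjusted p = 0.0274). The set thus held a positive transducer and inhibitors among the genes that fell. The part of a change in cell mix in these values was not tested, and the chondrocyte markers fell by a median log2 fold change of -0.86. Irs2 was at 12.5 to 15.7 CPM in all 4 libraries.

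Over all 17120 genes tested, 3154 had an unadjusted edgeR p under 0.05. Of 20 tested genes of the PI3K, AKT, FOXO and mTOR arm, edgeR and the DESeq2 test both called 0 (3 at an unadjusted edgeR p under 0.05). Their median log2 fold change was 0.16. The smallest p values belonged to Pik3ca, a catalytic PI3K subunit (log2 fold change -0.71 with an SE of 0.23, edgeR adjusted p = 0.153), and Rheb, the GTPase that activates mTOR (0.36 ± 0.12 SE, edgeR adjusted p = 0.175). Without sham 2, edgeR called 2 genes of this arm, Pik3ca lower and Pdpk1, the kinase that activates AKT, higher. Of 6 tested genes of the growth hormone axis, which drives Igf1 in liver and bone, edgeR and the DESeq2 test called 0, also at an unadjusted edgeR p under 0.05 (0 genes). Cish and Socs2, feedback inhibitors of that axis, had values of 0.54 ± 0.34 and -0.19 ± 0.13 (SE) on the log2 scale. The last list held genes of the Igf2 locus, Plagl1 on chromosome 10 and the Igf2 mRNA binding proteins. Of its 4 tested genes both tools called 0 (3 at an unadjusted edgeR p under 0.05, H19 and Plagl1 lower and Igf2bp2 higher). Igf2bp2, which encodes an mRNA binding protein and was named after its values were seen, was at 4.46 and 3.12 CPM in the sham libraries and 6.30 and 13.7 CPM after ovariectomy (log2 fold change 1.40 with an SE of 0.44, edgeR adjusted p = 0.142). It passed with no filter on low counts (edgeR adjusted p = 0.00811) and without sham 1 (edgeR adjusted p = 0.0295). Plagl1, an imprinted zinc finger factor, was at 65.6 and 60.1 CPM in the sham libraries and 48.3 and 38.4 CPM after ovariectomy (log2 fold change -0.54 with an SE of 0.16, edgeR adjusted p = 0.129).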

How the data were processed

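Counts per gene were deposited by the authors in 1 table, not normalized. The submitters' processing notes name Trim Galore 0.6.6, featureCounts 2.0.1 and the build GRCm38 (mm10). Which aligner, annotation release and strand setting were used is not given in the sources used here, so reads of overlapping genes cannot be told apart. GENCODE M21 (GRCm38) gave symbols, positions and exon lengths for 55227 of 55487 IDs, and RefSeq (GRCm38.p6) the promoter windows, with all 10 members matched in both.

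From the counts, filterByExpr kept 17120 genes, TMM scaled the libraries, and edgeR 4.0.16 in R 4.3.3 compared the groups by its quasi-likelihood F test (two-sided, group alone), with Benjamini-Hochberg adjustment over all genes tested. A gene is called at an adjusted p under 0.05. The SE is the log2 fold change divided by the square root of F. Depth limits precision to 1 count, and 3 counts set the detection floor. Both replicate pairs differed beyond sampling noise (chi-square per degree of freedom 31.7 and 14.8). Alternatives were library totals, upper-quartile and DESeq2 scaling, DESeq2 1.42.0 and limma-voom 3.58.1 tests, other filters, a replicate block and leaving out each library.

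The members and lists were chosen with earlier results of these data known. Named are all 10 members, every called gene of each pathway list (or the 2 with the smallest p), the 3 genes nearest in profile to each called member, and the marker lists' sums and calls. Others were named after their values were seen.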

Additional observations from a re-analysis of the deposited data

How the results depend on the processing

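In all 12 alternatives Igfbp4, Igfbp5, Igfbp6 and Stc2 kept their direction, and in 10 of them their call, the exceptions being the 2 fits without an ovariectomy library. With each library left out, members called ranged from 0 to 6 higher and from 0 to 1 lower, other pathway genes from 0 to 4 higher and from 0 to 4 lower, and all genes from 0 to 1277 higher and from 0 to 558 lower. The log2 fold change of Igf2 ranged from -0.375 (without ovariectomy 2) to 1.095 (without sham 2), and was -0.342 without sham 1. Of the other pathway genes, 3 were called higher by limma-voom, by the DESeq2 test, with library totals and with the mean of at least 5 CPM, and 4 with no filter, against 1. Over all genes (510 higher, 206 lower), the DESeq2 test called 923 and 483, no filter 1112 and 544, while limma-voom called 313 lower and the mean of at least 5 CPM 406 lower. Library totals raised the median gene by 0.11 log2 units and the share of higher calls from 71.2% to 82.2%, with 718 higher and 156 lower. The labels number the libraries 1 and 2 in both groups, but same-numbered libraries did not deviate together across all genes (correlation 0.004). Whether they share a batch that moves a part of the genes was not tested. With the replicate block, 745 genes were higher and 329 lower, 3 other pathway genes were higher, and the calls of the members did not change. Igfbp2 gave no value without ovariectomy 2, and Igf2 and Igfbp2 none with the mean of at least 5 CPM. Members with under 20 counts in a library (Igf2, Igfbp2) are limited by depth.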

Other observations

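The family holds pairs of neighbouring genes. Igfbp2 and Igfbp5 lie tail to tail on chromosome 1 (GRCm38), with 5457 bases and 0 annotated genes between them. Igfbp5 had between 2474 and 14468 counts in a library, and Igfbp2 between 0 and 12. The next coding gene before the pair, Rpl37a, a ribosomal protein gene, had 378 and 492 counts in sham and 519 and 306 counts in ovariectomy libraries, and the next after it, Tnp1, a sperm nuclear protein gene, had 0 in all 4. Igfbp1 and Igfbp3 lie in the same arrangement on chromosome 11, 3539 bases apart, and there Igfbp3 had between 21 and 253 counts. The levels of neighbours thus differed widely within both pairs in these cells.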
